A study of Rattus norvegicus with 140 samples.

Results

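Organic osmolytes are small molecules such as myo-inositol, taurine, betaine, sorbitol and amino acids that cells gather when the fluid around them becomes hypertonic. The genes that bring them in or make them were followed here in heated rats: Slc5a3 (the sodium-coupled myo-inositol transporter), Slc6a6 (the taurine transporter), Slc6a12 (the betaine transporter), Slc38a2 (the SNAT2 carrier of neutral amino acids), Akr1b1 (aldose reductase, which makes sorbitol from glucose) and Nfat5 (the transcription factor that switches on osmolyte genes in hypertonic cells). They were chosen by symbol, as genes of the hypertonic response. The array annotation gives a transcript ID for 5 of the 6 symbols, 5 of the 29214 IDs measured. No ID carries the symbol Slc6a12, so the betaine transporter has no value.

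As background, NFAT5 binds tonicity-responsive elements near its target genes, and the carriers and the reductase that result let a cell hold water without raising its salt. The inner medulla of the kidney, where urine is concentrated, is the tissue best known for this programme, and its cells hold large amounts of sorbitol, myo-inositol, betaine and taurine. SLC38A2 is also raised when amino acids run short, and SLC5A3 lies inside the MRPS6 gene and in human shares its promoter and first exon with it.

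The rats were male Fischer 344 animals, 2 to 3 months old, with implanted temperature transmitters, and no group carries a transgene or other treatment. Heated rats were kept in an incubator at 37°C until the core temperature reached 41.8°C and were killed then (TcMax) or after 24 h or 48 h of recovery in their cages. Control rats were not heated and were killed at the same times. By the labels they spent a short while in the unheated incubator, whereas by the study's methods they were not put into it. Transcripts of heart, liver, kidney and lung were read on 140 Rat Gene ST arrays, with 1 rat for each array of an organ and 5 or 6 arrays in each group. By the rat tags in the labels, the organs of a time came from the same rats, though some rats lack an array of an organ. An exception is in the 48 h controls, where a tag of liver and lung differs from that of kidney and heart. The comparisons of different organs thus share animals.

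Whole-array facts bear on some values. Array medians lay between 37.2 and 70.4 intensity units, and 5 or 6 arrays in a group set how precisely a difference is known. Heated replicate 4 of the 48 h hearts was left out because its lung epithelium markers averaged 12.4 on the log2 scale and its cardiomyocyte markers 6.03, against at most 5.75 and at least 10.6 in the 34 other hearts. The mean level of 6 hepatocyte markers (Alb, Ttr, Serpina1, Tat, Cps1 and Fgb) was 11.9 to 12.5 in liver, but it ran from 4.71 to 9.53 in heart, from 4.33 to 10.2 in kidney and from 4.73 to 9.23 in lung. Albumin (Alb) reached 4541 intensity units in a heart array and 5877 in a kidney array, and none of the 6 markers was listed at 0. Tests at TcMax in heart, kidney and lung are therefore also given with the hepatocyte marker level as a covariate, an alternative chosen after these levels were seen.

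Sequences around the starts of genes are shown for Slc5a3, the member with the largest change, and for the 2 windows that held a motif known from the response to heat or to hypertonicity. The windows come from RefSeq (build GRCr8) and run from 250 bases before to 50 bases after a start site. They were found for 4 of the 6 members and for Mrps6. Slc5a3 is annotated at chr11:44799787-44802233 on the forward strand, inside the span of Mrps6 at chr11:44778667-44834420, so the start of Mrps6 is shown too. Capitals mark a heat shock element (GAANNTTC or TTCNNGAA) or a tonicity-responsive element (11 bases, the known TonE consensus), searched on both strands.
Slc5a3, chr11:44799537-44799836: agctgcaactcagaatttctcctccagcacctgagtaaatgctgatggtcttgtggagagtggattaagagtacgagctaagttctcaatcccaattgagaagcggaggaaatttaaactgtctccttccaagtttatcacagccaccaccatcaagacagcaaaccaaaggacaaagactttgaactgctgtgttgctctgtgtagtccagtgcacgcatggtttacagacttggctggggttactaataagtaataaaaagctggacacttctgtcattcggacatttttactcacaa
Mrps6, chr11:44778417-44778716: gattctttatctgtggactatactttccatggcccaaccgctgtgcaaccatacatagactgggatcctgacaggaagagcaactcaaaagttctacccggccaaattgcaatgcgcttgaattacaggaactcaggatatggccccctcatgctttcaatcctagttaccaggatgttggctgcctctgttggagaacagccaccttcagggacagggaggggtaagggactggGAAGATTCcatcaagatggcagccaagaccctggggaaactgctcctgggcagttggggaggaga
Slc6a6, chr4:125752252-125752551: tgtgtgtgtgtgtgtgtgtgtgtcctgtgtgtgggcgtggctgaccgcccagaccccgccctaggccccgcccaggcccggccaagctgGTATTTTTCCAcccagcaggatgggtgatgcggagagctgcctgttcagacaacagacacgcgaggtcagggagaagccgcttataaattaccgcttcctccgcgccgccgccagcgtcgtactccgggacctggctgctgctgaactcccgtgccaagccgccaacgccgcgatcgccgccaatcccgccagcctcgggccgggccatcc
The window of Slc5a3 held neither motif. That of Mrps6 held 1 heat shock element match, GAAGATTC, from 15 to 8 bases before the annotated start, and the window of Slc6a6 held 1 TonE match, GTATTTTTCCA, which reads as the consensus on the other strand. The start site of the Slc6a6 window lies 162 bases after the first base that RefSeq gives for the gene, chr4:125752340, and the match at chr4:125752341-125752351 begins 1 base after that first base, so it is not upstream of the gene. The other 4 windows start from the gene's first base. The windows of Slc38a2 and Slc6a12 held neither. Heat shock element matches occurred in 15.9% of all 33469 promoter windows and TonE matches in 5.99%, so a match describes the letters and is no evidence of binding.

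Slc5a3, the myo-inositol transporter, rose in each of the 4 organs at TcMax, by 19.4-fold in liver, 5.55-fold in heart, 5.37-fold in lung and 2.41-fold in kidney. It was near the control level at 24 h, with no difference over 1.23-fold in any organ. Differences below are on the log2(intensity + 16) scale, heated minus control, with the standard error (SE) of the fit. A gene was called when its adjusted p from limma (Benjamini-Hochberg over the 14607 IDs tested in the organ) was under 0.05 and its change at least 2-fold. Groups were termed apart when all heated arrays lay above, or all below, every control array. At TcMax this held for 14.2% of the liver IDs tested, 13.4% for lung, 7.99% for kidney and 4.87% for heart. For heart the share was 1.78% at 24 h and 0.917% at 48 h, and for liver 1.33% and 3.21%. A separation of groups is thus a description and no further test.

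**Figure D1:**
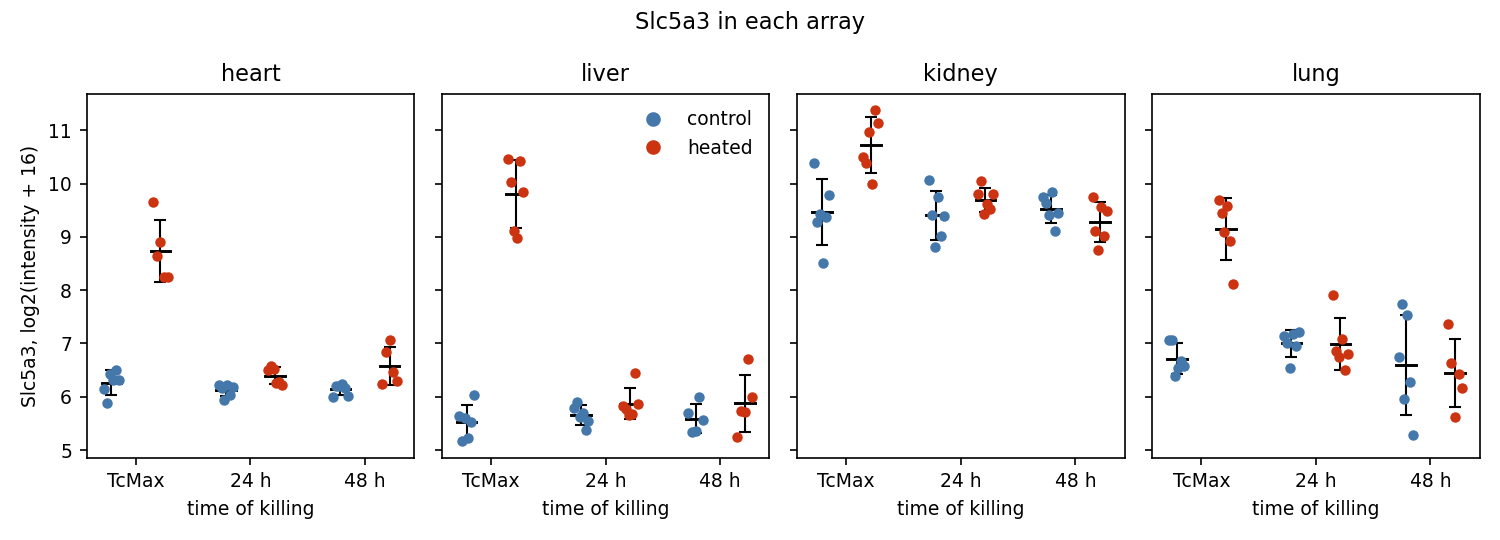
Slc5a3 in each used array, as log2(intensity + 16) on the vertical axis, by organ and time of killing, with control arrays in blue, heated arrays in red, and black marks for the mean and SD of each group. At TcMax the heated arrays of heart, liver and lung lie above every control array of the organ, kidney groups overlap, and at 24 h the groups lie close together.

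In liver, Slc5a3 intensities at TcMax were 19.9 at the lowest, 31.4 at the median and 49.7 at the highest in 6 controls, and 490.9, 964.9 and 1395 in 6 heated rats. The lowest heated liver was thus far above the highest control. The difference was 4.28 ± 0.216 (adjusted p = 7.08e-18), which placed it above 99.9% of the tested liver IDs. In heart the 5 heated rats gave 789.5, 383.3, 464.0, 288.3 and 286.4, and the 6 controls 42.7, 63.8 and 75.0 (lowest, median, highest). Every heated heart lay above every control, and the difference was 2.47 ± 0.179 (adjusted p = 4.56e-13). It was 2.40 ± 0.176 with the hepatocyte marker level as a covariate.

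In lung the 6 controls ran from 68.0 over a median of 82.5 to 118.2, and the 6 heated rats from 260.3 over 607.3 to 808.2. The groups did not overlap, and Slc5a3 rose by 2.43 ± 0.310 (adjusted p = 1.55e-07), or 2.27 with the hepatocyte covariate. In kidney, where the control level was already high, the controls gave 346.7, 660.6 and 1320 and the heated rats 1010, 1706 and 2643 (lowest, median, highest). The kidney groups overlapped, since the highest control exceeded the lowest heated rat. The rise was 1.27 ± 0.239 (adjusted p = 0.000180), and 1.24 ± 0.243 with the hepatocyte covariate. It was 1.90 ± 0.266 (adjusted p = 0.00154) in the 2 heated and 3 control kidneys whose hepatocyte marker level was at most 7.

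The labels tag each rat, and the first part of the tag (09, 11 or 12) splits each group of TcMax in 3, with 2 heated and 2 control arrays in a part (1 heated heart in part 12). The labels do not say what the part means. Both heated kidneys with a hepatocyte marker level of at most 7 were of part 12. The 3 such control kidneys were of parts 09, 11 and 12. Slc5a3 was higher in heated rats within each part, by 5.06, 4.12 and 3.65 in liver, 3.13, 2.20 and 1.83 in heart, 2.50, 2.87 and 1.90 in lung and 0.61, 1.52 and 1.68 in kidney for parts 09, 11 and 12. Of these, heart in part 12 (adjusted p = 0.110) and kidney in parts 09 (0.553) and 11 (0.234) did not pass. Slc38a2 rose within each part in lung, by 1.16, 1.12 and 1.09, and in liver it differed by 1.60, 2.13 and 1.32, the last with an adjusted p of 0.0549. For Slc6a6 the parts gave −0.89, −1.37 and −0.63 in heart and −0.95, −0.98 and −1.18 in liver, of which part 11 in heart alone was called.

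The heated rats differed from one another, and their order changed with the organ. The rat with the highest heart value, 789.5, also had the highest lung value, 808.2, and the second highest liver value, 1353, but in kidney it had 1426, below 3 of the other 5. The rat with the lowest heart and lung values, 286.4 and 260.3, had 2248 in kidney, the second highest there. These are single animals, and the order was not tested.

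At the later times the Slc5a3 groups lay close. At 24 h the difference was 0.26 ± 0.171 in heart (adjusted p = 0.999), 0.22 ± 0.216 in liver (0.714), 0.29 ± 0.239 in kidney (0.716) and −0.02 ± 0.310 in lung (adjusted p = 1). In heart at 48 h the 5 heated rats gave 60.1, 98.4, 117.6, 71.8 and 62.9, all above the highest control, 59.8, and the difference of 0.44 ± 0.179 did not pass (adjusted p = 0.122). At 48 h liver gave 0.29 ± 0.237, kidney −0.25 ± 0.239 and lung −0.15 ± 0.325, none of which passed. The lung controls of 48 h were the most scattered of the lung groups, with 23.0 at the lowest and 198.3 at the highest.

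The change between the times was tested as the 24 h difference minus the TcMax difference. For Slc5a3 it was −4.06 ± 0.306 in liver (adjusted p = 2.22e-12), −2.44 ± 0.438 in lung (0.000138) and −2.21 ± 0.247 in heart (6.05e-08), all called. In kidney it was −0.97 ± 0.338 and did not pass (adjusted p = 0.0854). The tests of this change called 1.68% of the heart IDs, 4.83% of the liver IDs, 1.92% of those of kidney and 2.36% of those of lung.

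Because the organs came from the same rats, their responses at TcMax were compared within rats. Slc5a3 responded more in liver than in each other organ, with heart minus liver at −1.80 ± 0.244 (adjusted p = 0.000543), liver minus kidney at 3.01 ± 0.372 (0.000198) and liver minus lung at 1.85 ± 0.269 (0.000382). Heart and lung responses differed by 0.0038 ± 0.286 (adjusted p = 0.998). The heart response exceeded the kidney response by 1.33 ± 0.359 (adjusted p = 0.121) and the lung response exceeded that of kidney (kidney minus lung −1.16 ± 0.401, adjusted p = 0.1501), and neither passed. They passed when 1 rat was left out, that of heated heart replicate 5 for heart minus kidney (1.60, adjusted p = 0.0478) and that of heated kidney replicate 6 for kidney minus lung (−1.45, 0.0445). The shares of IDs called in these comparisons were 1.73% for heart and liver, 0.483% for heart and kidney, 0.717% for heart and lung, 1.80% for liver and kidney, 1.78% for liver and lung and 0.851% for kidney and lung.

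**Figure D2:**
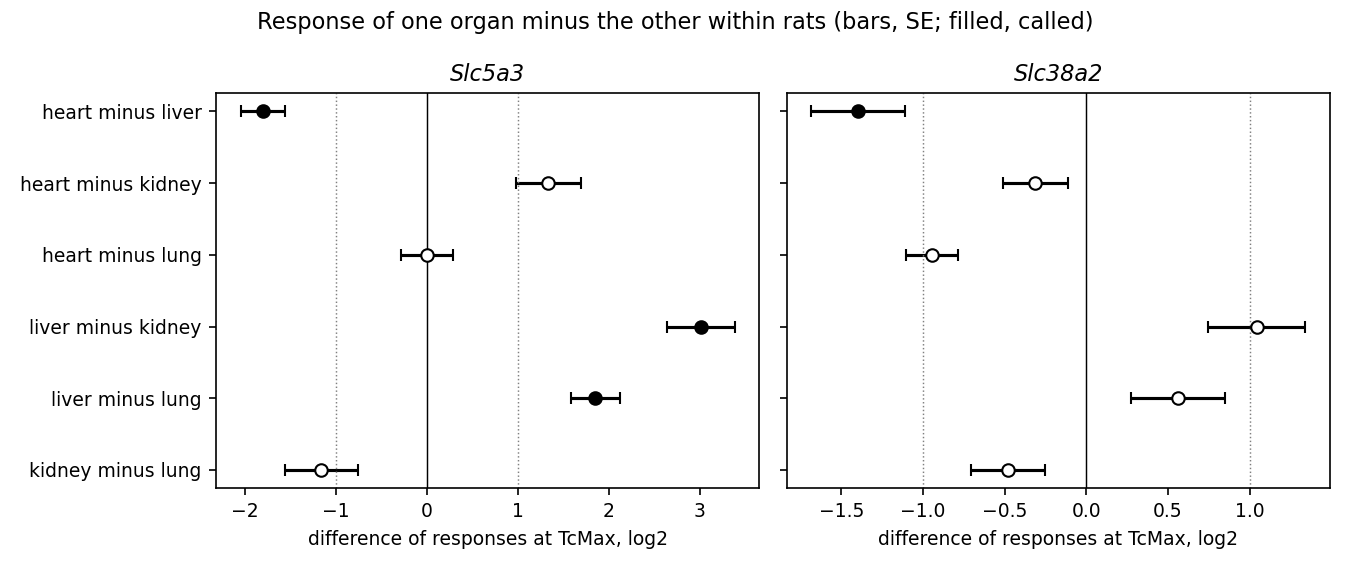
Response of 1 organ minus that of another within the same rats at TcMax for Slc5a3 and Slc38a2, as log2 differences with SE bars, filled where called, with dotted lines at a 2-fold difference. The Slc5a3 points with liver stand at −1.80, 3.01 and 1.85 and are filled, and for Slc38a2 the point of heart minus liver, −1.40, is filled.

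Slc38a2, the amino acid carrier SNAT2, rose at TcMax in liver and lung. In liver the 6 heated rats gave 997.0, 1895 and 2562 (lowest, median, highest) and the 6 controls 365.4, 442.2 and 1504. The groups overlapped through 1 control, replicate 6 at 1504, while the other 5 controls lay at 491.7 or below. The difference was 1.68 ± 0.231 (3.21-fold, adjusted p = 3.74e-07). In lung the controls lay between 766.4 and 906.9 (median 807.4) and the heated rats between 1750 and 1838 (median 1790). The heated lungs were thus very alike, with an SD of 0.025 on the log2 scale against 0.088 in the controls. The rise was 1.12 ± 0.0753 (2.17-fold, adjusted p = 3.25e-14) and was 1.11 with the hepatocyte covariate.

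In kidney Slc38a2 ran from 428.0 over 671.1 to 963.2 in controls and from 725.9 over 990.5 to 1767 in heated rats. The ranges overlapped, and the difference of 0.64 ± 0.173 (adjusted p = 0.00936) stayed under 2-fold and was not called. With the hepatocyte covariate it was 0.64 ± 0.178 (adjusted p = 0.0109), also under 2-fold. In the 2 heated and 3 control kidneys with a hepatocyte marker level of at most 7 it was 1.15 ± 0.264 (adjusted p = 0.0430) and was called. In heart Slc38a2 was not among the IDs tested. The 5 heated hearts lay between 1002 and 1278 and the 6 controls between 873.2 and 1173, a difference of 0.17 ± 0.114 (adjusted p = 0.549 over all IDs). At 24 h and 48 h its differences lay between −0.24 and 0.03 in the 4 organs, and none was called. The 24 h minus TcMax change was −1.83 ± 0.326 in liver (adjusted p = 8.36e-05) and −1.10 ± 0.106 in lung (1.26e-09), both called, and −0.86 ± 0.245 in kidney (0.0268), under 2-fold.

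Within rats, the Slc38a2 response of heart minus that of liver was −1.40 ± 0.287 (adjusted p = 0.0141), which was called, and heart minus lung was −0.95 ± 0.159 (0.00652), under 2-fold. Liver exceeded kidney by 1.04 ± 0.296 (adjusted p = 0.0525) and lung by 0.56 ± 0.287 (0.288), and neither passed. Without the rat of liver control replicate 6, the bright control named above, liver minus kidney was 1.31 (adjusted p = 0.00282) and was called, and without that of heated heart replicate 3 heart minus lung was −1.004 (0.0128), also called.

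**Figure D3:**
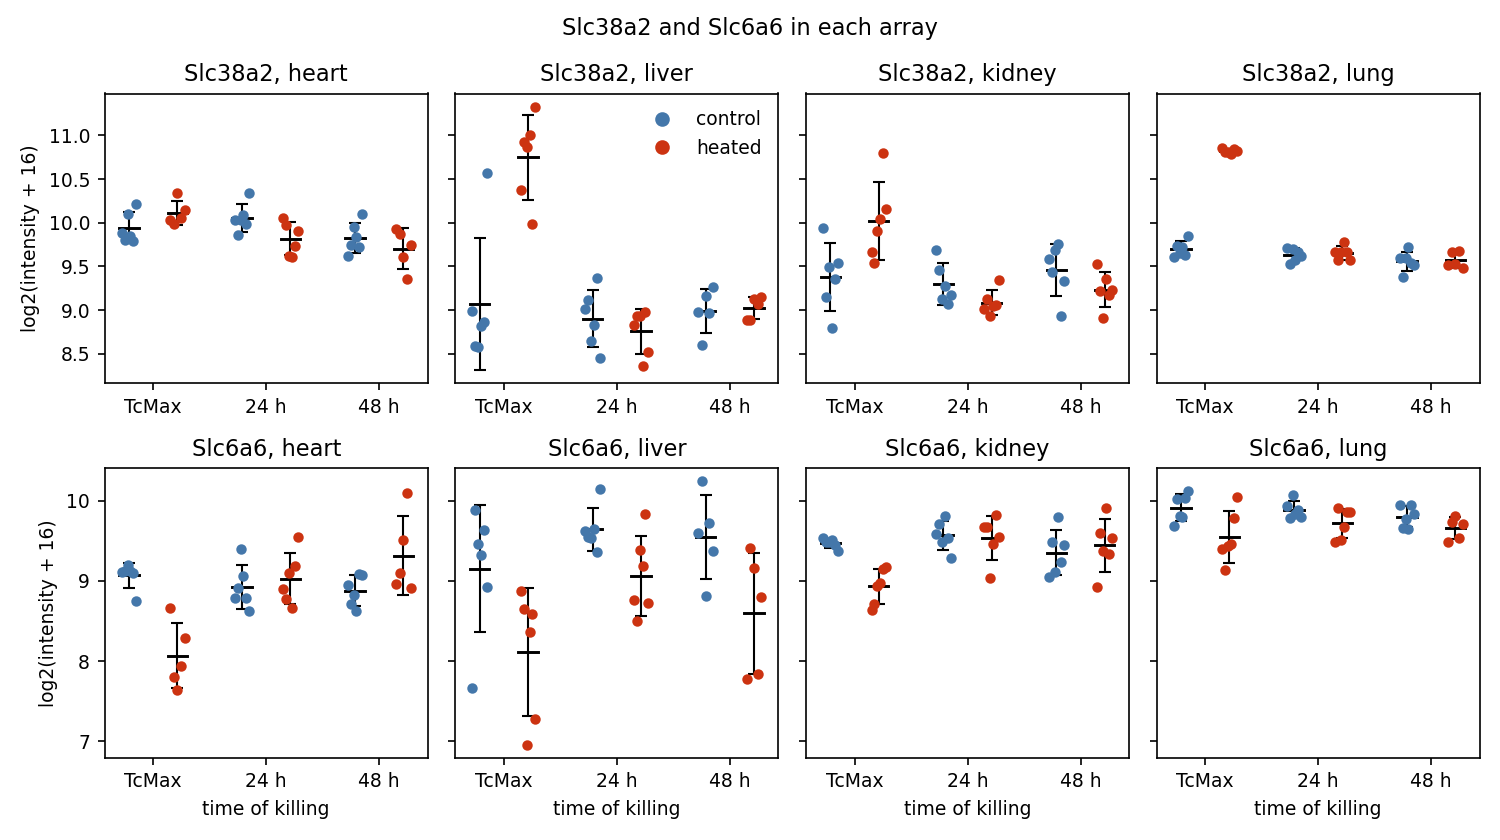
Slc38a2 (upper row) and Slc6a6 (lower row) in each used array as log2(intensity + 16) by organ and time, with control arrays in blue, heated arrays in red, and black marks for the mean and SD. Heated lungs at TcMax gather between 1750 and 1838 intensity units for Slc38a2, and heated hearts at TcMax lie below the controls for Slc6a6.

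Slc6a6, the taurine transporter, moved the other way at TcMax. In heart the 5 heated rats gave 387.3, 207.8, 183.1, 229.7 and 297.0, all below the controls, which ran from 413.7 over a median of 538.5 to 571.0. It fell by 1.0 ± 0.192 (adjusted p = 0.000340), at the 2-fold limit, and by 0.97 ± 0.197 with the hepatocyte covariate, just short of it. It also fell short, at 0.89 to 0.99, when any of control replicates 1 to 5 or heated replicates 2 to 4 was left out, with adjusted p of at most 0.00298. In liver the 6 controls gave 187.5, 657.5 and 930.9 and the 6 heated rats 108.4, 339.9 and 452.2 (lowest, median, highest). The liver groups overlapped through control replicate 1 at 187.5, and the fall was 1.03 ± 0.330 (adjusted p = 0.0142). Leaving out heated replicate 3, the lowest liver, gave a fall of 0.80 (adjusted p = 0.0573) and leaving out heated replicate 6 a fall of 0.87 (0.0511). Without control replicate 2, 3, 4 or 5 the fall was 0.89 to 0.9995 with an adjusted p of at most 0.0475.

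In kidney Slc6a6 lay between 645.6 and 726.5 in controls (median 697.1) and between 381.0 and 562.1 in heated rats (median 480.5). The kidney groups did not overlap, and the fall of 0.54 ± 0.142 passed the test (adjusted p = 0.00774) but stayed under 2-fold. With the hepatocyte covariate the difference was −0.49 ± 0.137 (adjusted p = 0.0123). In the 2 heated and 3 control kidneys with a hepatocyte marker level of at most 7 it was −0.30 ± 0.218 and did not pass (adjusted p = 0.775). In lung Slc6a6 was not among the IDs tested, and its difference was −0.37 ± 0.111 (adjusted p = 0.0166 over all IDs). The 2 heated rats with the lowest liver values, 108.4 and 139.0, had the 2 highest values of the heated group in kidney and in lung. Both are of tag part 12, and the 2 control livers of that part, at 187.5 and 468.5, were the lowest controls. This order was not tested. No pair of organs differed in its Slc6a6 response by the test, with adjusted p from 0.278 to 0.936.

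After recovery Slc6a6 was no longer low in heart. The 24 h minus TcMax change in heart was 1.10 ± 0.265 (adjusted p = 0.0110), which was called. At 48 h the 5 heated hearts gave 482.7, 529.2, 713.4, 1075 and 466.1 against 378.2 to 528.1 in controls, a difference of 0.44 ± 0.192 (adjusted p = 0.157). With the heart array that was left out, this was 0.59 ± 0.201 (adjusted p = 0.0377), under 2-fold. In liver the heated rats stayed lower on average. At 24 h the difference was −0.58 ± 0.330 (adjusted p = 0.441), and at 48 h it was −0.95 ± 0.361 (0.376), with heated livers at 202.5, 662.0, 554.2, 212.2 and 430.7 and controls at 756.7, 1197, 432.1, 828.6 and 647.0. These groups overlapped and did not pass the test.

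Akr1b1, aldose reductase, was not called in any organ or time. Its kidney values were scattered over a wide range within every group. At TcMax the 6 control kidneys gave 105.7, 1025 and 3830 and the 6 heated ones 134.6, 217.0 and 1508 (lowest, median, highest), a difference of −1.38 ± 0.710 (adjusted p = 0.257). With the hepatocyte covariate it was −1.45 ± 0.718 (adjusted p = 0.2255). In the 5 kidneys with a hepatocyte marker level of at most 7 the sign turned, at 0.18 ± 0.919 (adjusted p = 0.980). The 24 h minus TcMax change was 2.10 ± 1.0 in kidney (adjusted p = 0.278). In liver that change was 0.64 ± 0.207 (adjusted p = 0.0256), which passed the test but stayed under 2-fold. In heart, where Akr1b1 was not among the tested IDs, its difference was 0.02 ± 0.0908 at TcMax. At 24 h the 6 heated hearts, from 1322 to 1446, lay below the 6 controls, from 1527 to 1750, a difference of −0.25 ± 0.0866 (adjusted p = 0.801 over all IDs). In liver the TcMax difference was −0.33 ± 0.147 (adjusted p = 0.0918), and in lung it was −0.31 ± 0.0859 (0.00991 over all IDs), both under 2-fold.

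Nfat5 was not called either, and its differences were small in each organ and time, between −0.24 and 0.10. At TcMax its 6 control livers lay between 427.6 and 535.7 and the 6 heated livers between 453.4 and 601.1, and the control and heated hearts between 643.8 and 973.8 and between 598.1 and 935.1. Both pairs of groups overlapped. In kidney, the organ where it was tested, the controls gave 555.9, 987.8 and 1340 and the heated rats 521.5, 757.7 and 1042. The difference was −0.24 ± 0.207 (adjusted p = 0.587), and −0.26 ± 0.210 (0.5465) with the hepatocyte covariate. It was 0.15 ± 0.262 (adjusted p = 0.945) in the 5 kidneys with a hepatocyte marker level of at most 7. These arrays measure transcripts, so the activity of the NFAT5 protein was not seen here.

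**Figure D4:**
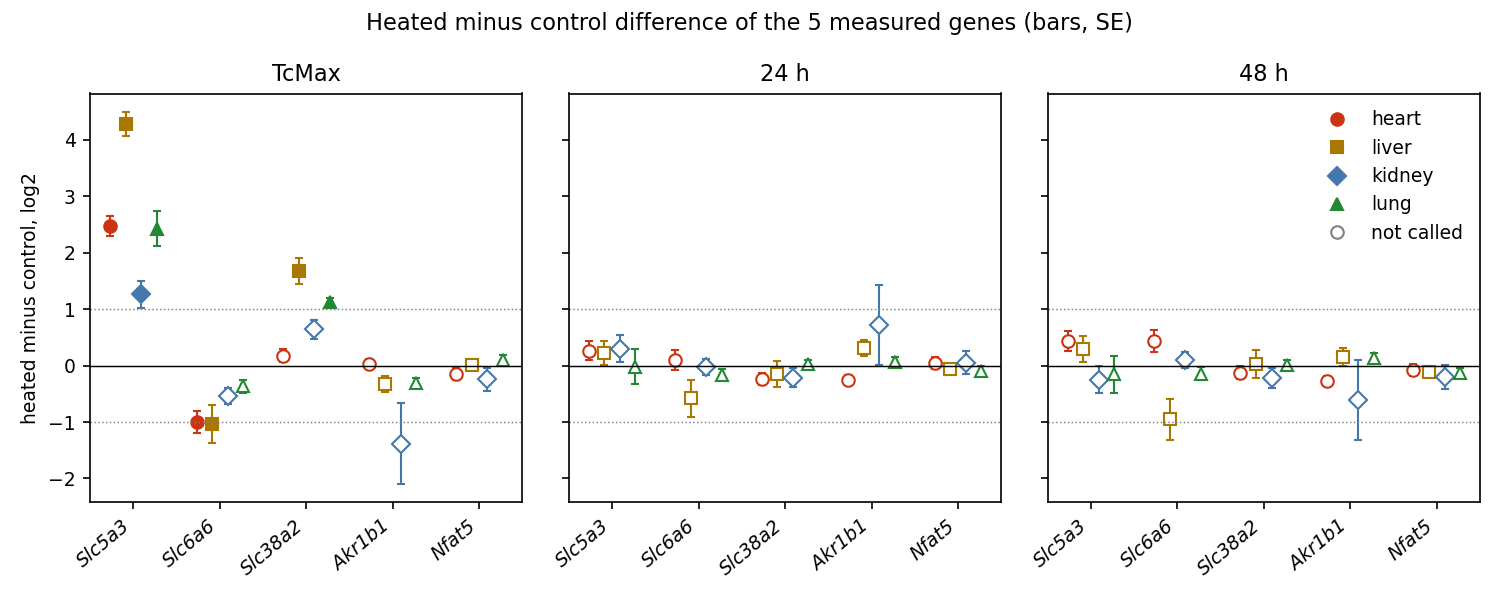
Heated minus control difference of the 5 measured genes at TcMax, 24 h and 48 h in each organ, as log2 differences with SE bars; symbols are filled where the gene was called, and dotted lines stand at a 2-fold change. At TcMax Slc5a3 stands at 4.28 in liver and 1.27 in kidney, Slc6a6 lies below 0 in all organs, and no symbol is filled at 24 h or 48 h.

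Counted by organ, 2 of the 2 tested members were called at TcMax in heart, where 2.02% of the tested IDs were called. It was 3 of 4 in liver (4.08% of IDs), 1 of 5 in kidney (1.83%) and 2 of 2 in lung (2.40%). All 5 members with an ID were measured in each organ. The tested IDs were those with the larger SD over all arrays of the organ, heated ones included. A gene that heat moved was thus more likely to be tested, and the members were chosen with earlier results known. These counts are descriptions. At 24 h and 48 h limma called 0 members in any organ, and 0 also with an unadjusted p under 0.05 and a 2-fold change. Of the 26 member values tested at these times, 4 had an unadjusted p under 0.05 with no fold minimum. They were 2 of 2 in heart at 48 h, 1 of 4 in liver at 24 h and 1 of 4 in liver at 48 h. Of all tested IDs, 22.9%, 14.1% and 8.93% passed in these comparisons. The shares of IDs called in heart were 0.0479% at 24 h and 2.08% at 48 h, those of liver 0.240% and 0.0274%, those of kidney 0.00685% and 0.0137%, and 0% of the lung IDs were called at either time (10 and 8 lung IDs with an unadjusted p and a 2-fold change). The median difference of the 5 members at TcMax was 0.02 in both heart and liver, −0.24 in kidney and 0.10 in lung, against −0.05, −0.11, −0.07 and −0.02 over all tested IDs.

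In the controls of all times together, Slc5a3 was brightest in kidney among the 4 organs, with a median of 671.3 against 100.2 in lung, 57.0 in heart and 32.6 in liver. Within an organ it lay above 95.0% of the IDs in kidney and above 44.4% in liver. Akr1b1 lay above 97.9% of the heart IDs and 74.1% of the liver IDs, with kidney (93.7%) and lung (92.1%) between. The organs were normalized apart, so this order was not tested. Nfat5 and Slc38a2 lay above at least 87.4% of the IDs in each organ, and Slc6a6 above at least 89.1%.

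The spread of Akr1b1 in kidney went with markers of the medulla and the distal nephron. The level of 9 such markers, the mean of their log2 values, ran from 8.85 to 11.4 over the 36 kidney arrays. Among these markers, Aqp2, Aqp3 and Slc14a2 are also in the list of genes known to respond to hypertonicity that is counted below. The level can thus move with the share of medulla or with that response, and these cannot be told apart here. Akr1b1 correlated with it at Pearson r = 0.92 and Spearman rho = 0.90 (each permutation p = 1e-05, the smallest that 100000 permutations can give, two-sided, and 2e-05 adjusted over 5 members). Without the 2 arrays farthest from the median level r was 0.92, and with the mean of each group taken off it was 0.93. By the first part of the rat tag in the labels, r was 0.97 in 11 arrays, 0.93 in 10 and 0.90 in 15. Among single markers, Akr1b1 correlated most with Aqp4 (r = 0.91) and Aqp2 (0.91), water channels of the collecting duct, with Aqp3 (0.90), and with Fxyd4 (0.89) and the urea transporter Slc14a2 (0.88). With the 4 other markers of the list it correlated weakly: Umod (−0.25) and Slc12a1 (0.21) of the thick ascending limb, the potassium channel gene Kcnj1 (0.26) and Hsd11b2 (0.29), which inactivates glucocorticoids.

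Nfat5 showed the same relation in kidney, with r = 0.87 and rho = 0.89 (permutation p = 1e-05 for each, adjusted 2e-05), 0.86 without the 2 farthest arrays, 0.91 within groups, and 0.86, 0.95 and 0.80 by tag part. Slc38a2 gave r = 0.34 and rho = 0.41 (adjusted p = 0.0668 and 0.0213), 0.42 without those arrays, and 0.58, 0.02 and 0.49 by tag part. Over the 18 control arrays alone it gave r = 0.82, and with group means taken off 0.69. Slc5a3 gave r = 0.26 and rho = 0.28 (adjusted p = 0.149 and 0.125) over all 36 arrays and 0.26 without those arrays. By tag part its r was 0.37, 0.06 and 0.39, but over the 18 control arrays alone it was 0.88, and with group means taken off 0.75. Slc6a6 gave r = −0.02 and rho = −0.09 (adjusted p = 0.906 and 0.604), −0.16 without those arrays, and 0.26, −0.19 and −0.25 by tag part.

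**Figure D5:**
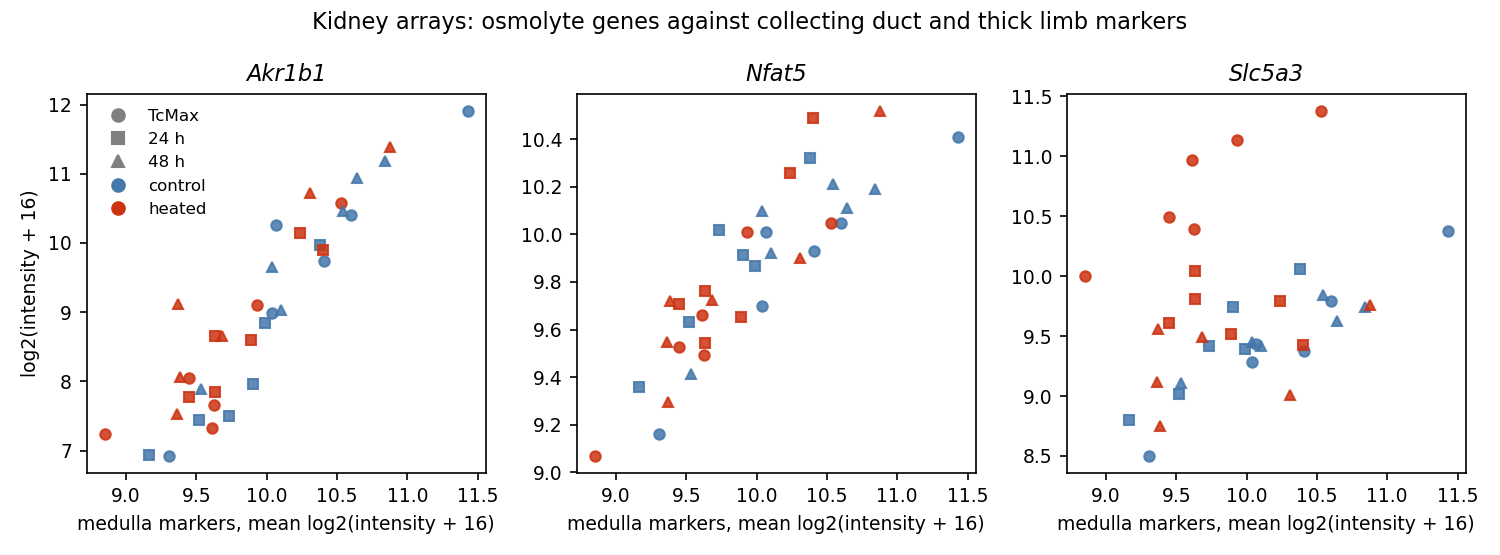
Akr1b1, Nfat5 and Slc5a3 in each of 36 kidney arrays (vertical axes, log2(intensity + 16)) against the mean log2 level of 9 medulla and distal nephron markers; blue arrays are controls, red are heated, and the shape gives the time. Akr1b1 and Nfat5 follow the marker level (r = 0.92 and 0.87), and the heated TcMax arrays of Slc5a3 lie above the others at a like marker level.

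The medulla marker level itself lay lower in the heated kidneys at TcMax (8.85, 9.62 and 10.5, lowest, median and highest) than in the controls (9.31, 10.2 and 11.4), and 0 of its 9 markers were called there by limma (3 with an unadjusted p under 0.05). The level of 8 cortex markers was 10.3, 10.5 and 10.7 in the heated kidneys and 9.07, 10.2 and 10.5 in the controls. Of the 8, 0 were called by limma and 5 had an unadjusted p under 0.05. Of all kidney IDs tested at TcMax, 1.83% were called and 21.8% had an unadjusted p under 0.05. With the medulla level as a covariate, chosen after it was seen, Slc5a3 rose in kidney by 1.65 ± 0.177 (adjusted p = 9.50e-09) at TcMax and Slc38a2 by 0.89 ± 0.142 (1.93e-05), still under 2-fold. The Akr1b1 difference became 0.09 ± 0.285 (adjusted p = 0.893) and that of Nfat5 0.16 ± 0.110 (0.470), while Slc6a6 gave −0.59 ± 0.150 (0.00597). In such tissue RNA a smaller share of a cell type and less RNA of a gene per cell cannot be told apart.

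No gene of 3 further lists of osmolyte uptake and metabolism was called. Of 12 other osmolyte carriers with an ID (among them the creatine carrier Slc6a8 and the inositol carriers Slc5a11 and Slc2a13), 0 were called in any of the 12 comparisons, and their differences at TcMax lay between −0.90 and 0.42 over the organs. Of 10 genes of myo-inositol and sorbitol metabolism, such as Sord (sorbitol dehydrogenase) and Miox (which degrades myo-inositol), 0 were called. Of 16 genes of taurine, betaine and glycerophosphocholine metabolism, such as Csad (taurine synthesis) and Bhmt (which uses betaine), 0 were called too. By limma's unadjusted p under 0.05, with no fold minimum, 24 of 117 tested values of the carriers passed, 20 of 75 of the first metabolic list and 16 of 105 of the second (20.5%, 26.7% and 15.2%), against 14.9% of all tested values in the 12 comparisons. In liver at TcMax it was 7 of 9 tested carriers, where 39.0% of all tested IDs passed. By the adjusted p alone, 9, 9 and 4 values of the lists passed (6.60% of all tested values). Among these was Isyna1, which makes the precursor of myo-inositol from glucose 6-phosphate, at 0.99 ± 0.221 in liver at 24 h (adjusted p = 0.0216), just under 2-fold and with the groups apart; it is named after its value was seen. The median TcMax difference of the osmolyte carriers was −0.02 in heart, −0.03 in kidney, −0.20 in lung and −0.35 in liver.

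Among 21 amino acid carriers related to Slc38a2 by family or function, 2 were called. Of their 207 values tested over the 12 comparisons, 2 rose and 1 fell by the call. By limma's unadjusted p under 0.05, 39 of the values passed (18.8%, against 14.9% of all tested values). Of all tested IDs, 4.08% were called in liver and 1.83% in kidney at TcMax, and 0.0274% in liver at 48 h. Slc7a5, the LAT1 carrier of large neutral amino acids, fell by 1.18 ± 0.171 in liver at TcMax (adjusted p = 1.18e-06) and rose by 1.28 ± 0.188 in liver at 48 h (0.000774), with heated and control arrays apart at both times. Slc7a7, a carrier of basic amino acids, rose by 1.54 ± 0.517 in kidney at TcMax (adjusted p = 0.0432), with overlapping groups. Of 14 genes of volume regulation by ions and anion channels, 1 was called: Sgk1, a kinase that stimulates sodium uptake, rose by 1.497 ± 0.319 in kidney at TcMax (0.000840). That was 1 of the 69 tested values of the list, of which 16 passed by the unadjusted p (23.2%).

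Of 15 other genes known to respond to hypertonicity, 4 were called. Of the 141 tested values of this list, 7 rose and 0 fell by the call. By limma's unadjusted p under 0.05, 32 of them passed (22.7%, against 14.9% of all tested values). In kidney at TcMax the differences of the list ran from −1.31 to 1.71. Ptgs2, the inducible prostaglandin synthase, rose at TcMax by 1.84 ± 0.531 in heart, 1.71 ± 0.218 in kidney and 1.299 ± 0.238 in lung. The chaperone gene Hspa4l (Osp94) rose by 1.56 ± 0.205 in lung and 1.11 ± 0.290 in liver. Cryab, which encodes a small heat shock protein, rose by 1.46 ± 0.316 in liver, and S100a4 by 1.36 ± 0.372 in heart at 48 h. Of 18 NFAT5 regulators and relatives, the 2 called were both chaperones that also respond to heat. Of the 90 tested values of this list 7 rose by the call, and 33 had an unadjusted p under 0.05 by limma (36.7%). Hsp90aa1 rose in all 4 organs at TcMax, by 2.32 to 2.71, and Hsp90ab1 in liver (1.19 ± 0.118), kidney (1.44 ± 0.0882) and lung (1.38 ± 0.0935). The lists were chosen with earlier results known, and their counts are descriptions.

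Over the 139 used arrays, with the mean of each organ taken off, Slc5a3 was most like Dnaja4 (r = 0.90), a cochaperone of the Hsp40 family, Zfand2a (0.90), a zinc finger gene known to rise on arsenite and heat, and Uspl1 (0.89). Slc38a2 was most like Ube2g2 (0.85), a ubiquitin-conjugating enzyme, Chac1 (0.85), which degrades glutathione, and Vom2r44 (0.83). The genes nearest to Slc6a6 were Tubb2a (0.67), Atp11a (0.67) and Pdgfrb (0.61). Akr1b1 was most like Tmem72 (0.96), Upk3bl1 (0.89) and Gjb5 (0.88), and Nfat5 most like Aqp4 (0.70), Scube2 (0.69) and RGD1561393 (0.67). Among the members themselves, Slc5a3 and Slc38a2 went together (r = 0.77), Slc5a3 and Slc6a6 ran opposite (−0.51), and Akr1b1 went with Nfat5 (0.60). The genes searched were those with a single symbol among the tested IDs of any organ, and a gene that heat moved was more likely to be among them. These arrays share rats across organs and share the heat response, so these values describe likeness over the arrays and carry no test.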

How the data were processed

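RNA of heart, liver, kidney and lung was hybridized by the authors to Rat Gene 1.1 ST arrays. The deposited values are intensities on a linear scale that the authors made with the iterPLIER procedure of Affymetrix Expression Console 1.1 for each organ apart. Their methods add an offset of 16, which the deposited values lack, so log2(intensity + 16) was taken here. Probe intensities were not used. Symbols came from the platform annotation, for IDs with a single gene there.

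Groups followed the sample labels, and 139 of 140 arrays were used. From the 29214 IDs of an organ, the upper 50% by SD (14607) were fitted in R 4.3.3 with limma 3.58.1, with a mean for each of 6 groups. Organ responses were compared on differences between 2 organs of a rat. A gene outside the tested IDs was given from the fit of all IDs. Nothing in the labels pairs rats of different groups. Steps were checked on simulated data. The members and lists were chosen with earlier results of these data known. All members are named, and of each list up to 4 called genes with the largest differences. The 3 genes most like each member were sought among genes with a single symbol that passed the SD filter in any organ. Alternatives were no SD filter, a filter on dim IDs, an offset of 1, quantile normalization, no moderation, fits of only the groups compared, a replicate block, the first part of the rat tag as a block and within it, unadjusted p, no fold minimum, the heart array kept, and each array left out. The marker covariates and the fit without arrays high in hepatocyte markers were added after the data were seen. Permutation tests and figures used Python 3.11.15, scipy 1.17.1, numpy 2.4.6 and matplotlib 3.10.9.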

Additional observations from a re-analysis of the deposited data

Results flagged for a closer look

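Of 120 groups of member values, 9 held an array far from the others by Dixon's criterion, where chance gives about 1 group in 20. The intensities of these arrays were 1504 for Slc38a2 in liver control replicate 6 at TcMax, 413.7 for Slc6a6 in heart control replicate 6 at TcMax and 1114 for Slc6a6 in liver control replicate 6 at 24 h. For Slc5a3 they were 71.1 in heated liver replicate 5 at 24 h and 76.6 in control lung replicate 3 at 24 h. For Nfat5 they were 601.1 in heated liver replicate 5 at TcMax, 658.4 in heated heart replicate 5 at 48 h and 665.7 in control kidney replicate 5 at 48 h, and for Akr1b1 748.2 in control lung replicate 3 at TcMax.

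Organs differed in their response at TcMax for Slc5a3, with −1.80 for heart minus liver, 3.01 for liver minus kidney and 1.85 for liver minus lung, and for Slc38a2, with −1.40 for heart minus liver. Times differed as well. The response at 24 h minus that at TcMax was −2.21 in heart, −4.06 in liver and −2.44 in lung for Slc5a3, −1.83 in liver and −1.10 in lung for Slc38a2, and 1.10 in heart for Slc6a6. What lies behind these differences was not tested.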

How the results depend on the processing

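No called difference changed sign under any alternative. Of 1009 member values of an organ and time, 981 kept their side of the threshold, 25 fell short of it and 3 newly passed; of 430 values between organs the counts were 420, 2 and 8, and of 49 between times 47, 0 and 2. The count of called members at TcMax in heart, 2, became 1 with the first part of the rat tag as a block, 1 within tag part 09, 0 within tag part 12 and 1 with the hepatocyte covariate, and ranged from 1 to 2 when single arrays were left out. In liver, 3 became 1 within tag part 12 and ranged from 2 to 3 over left-out arrays. Within tag parts 09 and 11 the liver call of Slc6a6 was lost as well (−0.95, adjusted p = 0.00718, under 2-fold, and −0.98, 0.0511). In kidney, 1 became 0 within tag parts 09 and 11, 3 with no fold minimum and 2 without arrays whose hepatocyte marker level was over 7. For the kidney change from TcMax to 24 h, 0 became 1 with no fold minimum. Between organs, heart and liver went from 2 to 1 with an offset of 1 and without moderation, heart and kidney from 0 to 1 with quantile normalization (0 to 1 over left-out arrays), heart and lung from 0 to 1 with no fold minimum (0 to 1), and liver and kidney from 1 to 2 with quantile normalization (1 to 2). Kidney and lung ranged from 0 to 1 over left-out arrays. The causes were not tested. For Akr1b1 heart minus kidney passed without the rat of heart control replicate 4 (2.37, adjusted p = 0.0327).

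Same-numbered rats are different animals. Over all organs and times the correlations of their deviations ran from −0.56, in kidney at TcMax, to 0.61, in kidney at 48 h. With a replicate block the heart Slc5a3 difference was 2.45 (adjusted p = 2.23e-11), and no count of called members changed.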
